A study of Vernicia fordii with 6 samples.

Results

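The MADS-box unigenes of male and female flower buds of tung tree (*Vernicia fordii*) were examined, a family of transcription factor genes that specifies floral organs. A unigene is an assembled transcript that stands for a gene. Unigenes were taken as MADS-box genes when the description of their SwissProt match named a MADS-box protein, AGAMOUS, DEFICIENS, GLOBOSA, SEPALLATA, PISTILLATA, APETALA 3 or another floral homeotic protein other than APETALA 2. This gave 38 of the 56065 unigenes in the table, and the rule itself reads the description alone. All names are those of the matching proteins of other plants, so that a unigene called AGAMOUS here is one whose best match is an AGAMOUS protein.

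The buds were at developmental stage 7 and came from 4-year-old trees of cultivar "Duisuitong", with both sexes collected from the same plant and 30 flowers pooled per sample. RNA of 3 male and 3 female samples was sequenced, and whole buds were used. The methods call the samples of a sex biological replicates, and p-values measure the spread between them. In whole buds, fewer cells of a type and less RNA per cell cannot be told apart.

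In the ABC model of the flower, A-class genes specify sepals and, with B-class genes, petals, while B-class genes with C-class genes specify stamens and C-class genes alone carpels. D-class genes act in ovules, and E-class (SEPALLATA) proteins join the others in complexes that bind DNA, so that they are needed in every whorl. Other clades of the family act mainly in the timing of flowering, in roots, or, among the type I genes, in the female gametophyte and endosperm. In tung tree the flowers are unisexual, and the female flower carries staminodes (stamens that do not become fertile).

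Shown here is the primer pair that the study designed for contig_8986 to check its sequencing data by quantitative PCR. It is shown because this B-class unigene is among those on which the results below turn. Both primers are in lower case, 5′ to 3′, with no letter in capitals.
contig_8986 forward primer: attcaaatcctcacccatcc
contig_8986 reverse primer: tagccctacaacaacgacaa
Each primer is 20 bases long with a GC content of 45%.

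Reads counted on unigenes numbered 14099287 to 16849489 in male libraries and 11467832 to 40385019 in female libraries, and MADS-box unigenes held 10529, 33793 and 14308 of them in male libraries 1, 2 and 3, and 34249, 53845 and 1998 in female libraries 1, 2 and 3. One female total exceeded the clean reads stated for any sample, so that what a counted read stands for is not known. Female library 3 stood apart. Its TMM factor (edgeR's correction of library size) was 0.319, against 0.808 to 1.86 in the other libraries, its effective total was 3648171 reads, and it showed a read for 27 of the 38 members, against 32 to 38 in the other libraries. Across unigenes, which are not independent replicates, its log2 level correlated by 0.8 and 0.796 with the other female libraries and by 0.824 with male library 3. Pollen and anther markers summed to 1167, 1648 and 1636 CPM (counts scaled to the effective library total) in male libraries, against 223, 183 and 360 CPM in female libraries, and 7 of the 24 tested were called higher in male flowers, as were 1.56% of all unigenes tested (the call is defined below). Of these 31 markers, 1 had no read in any male library and 2 had none in any female library. The 9 carpel and ovule markers summed to 31.5, 18.9 and 18.1 CPM in male libraries and 37.9, 32.6 and 31.5 CPM in female libraries. Of the 8 tested, 0 were called. An unadjusted p under 0.05 was found for 2, both higher in female flowers (25%, against 13.2% of all unigenes tested). In 3 every female library lay above every male library after TMM scaling (37.5%, against 8.88%). DESeq2 called 1 of the 8 higher in female flowers, as it did 2.03% of all unigenes tested. It called 10 of the 24 pollen and anther markers higher in male flowers, against 2.75% of all. Photosynthesis markers of green tissue (72 unigenes) summed to 9276, 3322 and 5593 CPM in male libraries and 1402, 1988 and 14309 CPM in female libraries, highest in female library 3. The part of these differences in the MADS-box results was not tested.

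Levels below are TMM-scaled RPKM, that is reads scaled to the length of the unigene and the effective size of the library, and a log2 difference is male minus female. A unigene was called when edgeR's quasi-likelihood test, adjusted by the Benjamini-Hochberg method over all 29327 unigenes tested, gave an adjusted p under 0.05 with a fold change of at least 2. Of the 38 MADS-box unigenes, 26 passed the filter on low counts and 12 did not. Only 1 of the 26 was called, the MADS18-like contig_36842, which was higher in male flowers, and none was called higher in female flowers. The 1 call is 3.85% of those tested, where 1.7% of all unigenes tested were called, 1.56% as higher in male and 0.143% as higher in female flowers. DESeq2 called 5 of the 26, all 5 higher in male flowers (19.2%, where it called 4.78% of all unigenes tested, 2.75% as higher in male and 2.03% as higher in female flowers). Without female library 3, 2 of the 31 members then tested were called by edgeR, both higher in male flowers (6.45%, against 1.83% of all unigenes tested in that fit), the additional one being the AGL18-like contig_26344. At an unadjusted p under 0.05, 8 members lay higher in male flowers and 2 in female flowers (38.5% of those tested, against 13.2% of all unigenes tested).

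The log2 differences of the 26 ran from -1.70 to 6.02 with a median of 0.51, against a median of -0.09 over all unigenes tested. Of the 26, 20 were above 0, as were 13346 of all 29327 unigenes tested. With library totals in place of TMM the median was 0.06, against -0.41 over all unigenes. In 10 members every male library lay above every female library (38.5%, where 10.6% of all unigenes tested did so), and in 3 every female library lay above every male library (11.5%, against 8.88%). On RPKM as deposited, without TMM scaling, these numbers were 3 (where 3.46% of all unigenes did so) and 0 (where 1.28% did). The 3 were contig_36842, contig_20950 and contig_26344. For the other tested members, any separation of the sexes in level given below holds for TMM-scaled levels only.

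**Figure D1:**
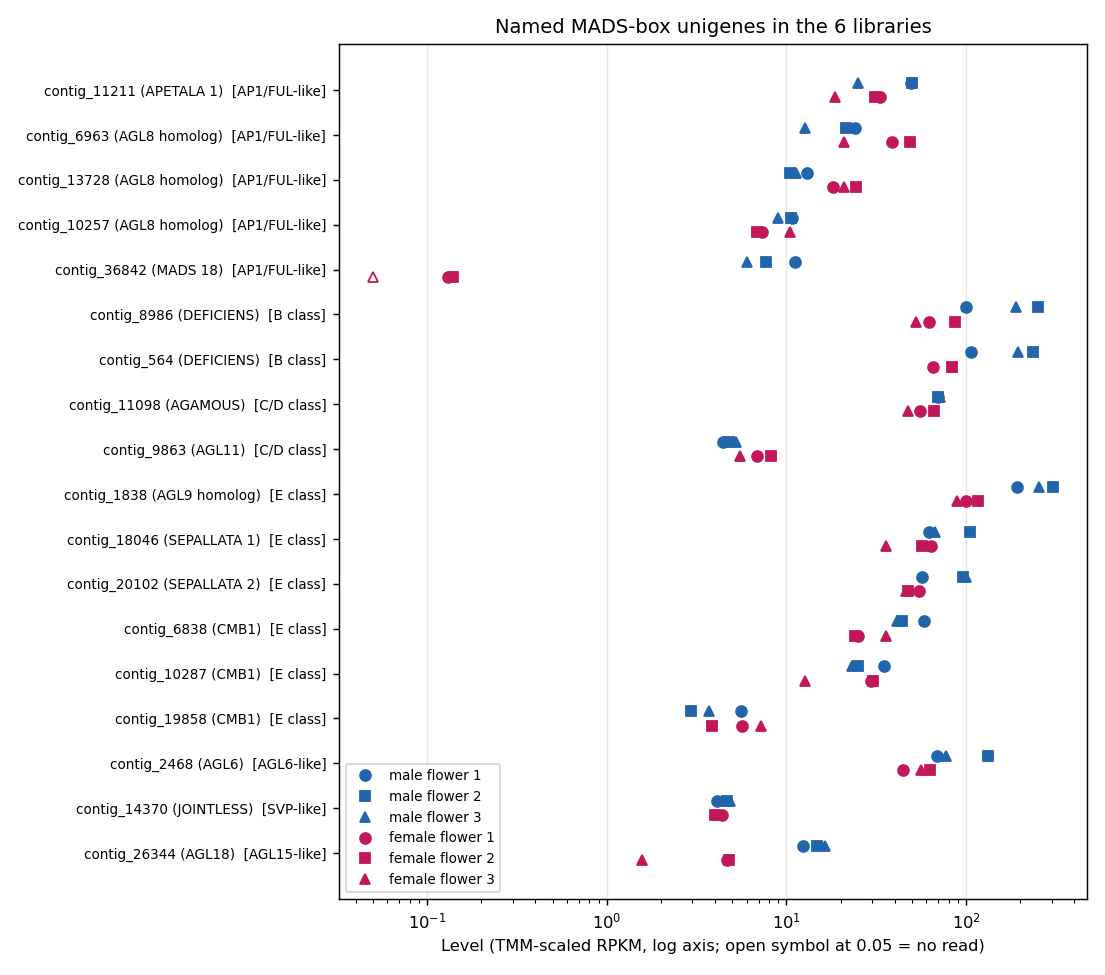
Level of the 18 named MADS-box unigenes (TMM-scaled RPKM, log axis) in each of the 6 libraries, with male libraries in blue above female libraries in red and 1 symbol per library; the name of the SwissProt match and the clade are on the left. The AGL9-like contig_1838 was highest on average in both sexes (250 in male and 102 in female flowers), and only contig_36842 had a library without a read (open symbol).

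Summed over the family, the level was 910, 1421 and 1129 in male libraries 1, 2 and 3, against 638, 725 and 565 in female libraries 1, 2 and 3. The sexes did not overlap, and the mean was 1153 ± 256 in male and 643 ± 79.8 in female flowers (SD, n = 3 each). On RPKM as deposited the sums were 736, 1944 and 993 in male libraries and 1108, 1346 and 180 in female libraries, and the sexes overlapped. E-class unigenes made up 45%, 40.8% and 43.2% of the MADS-box level in male libraries and 43.7%, 38.5% and 40.2% in female libraries, so that they were the largest class in all 6 libraries, with ranges that overlapped between the sexes. B-class unigenes made up 22.7%, 34.2% and 34% in male libraries and 20.2%, 23.6% and 24.1% in female libraries, with male library 1 inside the female range. The share of the AP1/FUL-like clade was 11.9%, 7.05% and 5.67% in male libraries, below the 15.3%, 15.4% and 12.5% in female libraries. C- and D-class unigenes held 8.15%, 5.35% and 7% in male libraries, also below the 9.8%, 10.3% and 9.39% in female libraries. These shares are descriptions of the 6 libraries, and a lower share is not a lower level. The summed level of C- and D-class unigenes was 74.2, 76.1 and 79.1 in male libraries and 62.5, 74.8 and 53.1 in female libraries. For the AP1/FUL-like clade it was 108, 100 and 64 in male libraries and 97.3, 111 and 70.7 in female libraries. Both sums overlapped between the sexes.

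**Figure D2:**
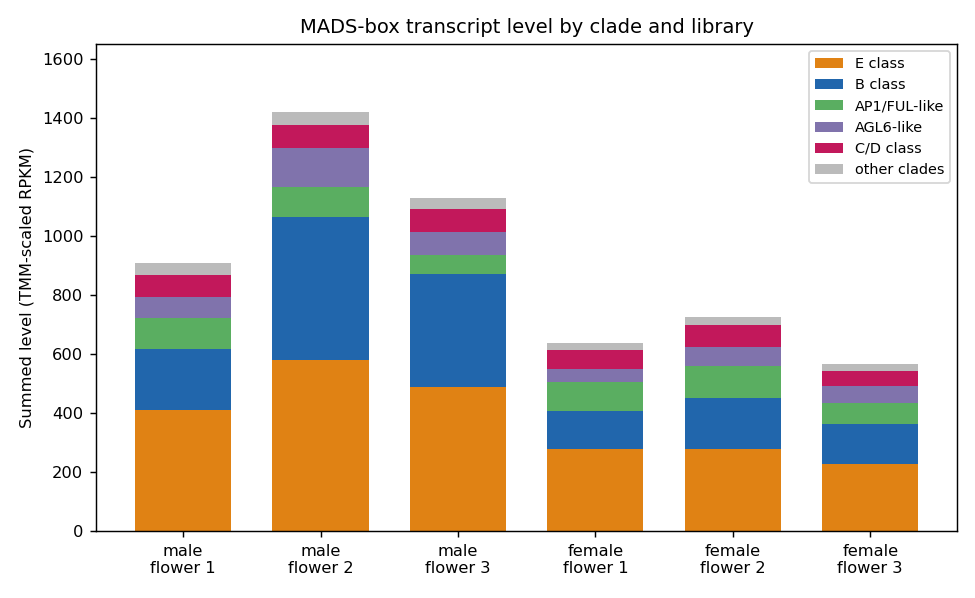
Summed level (TMM-scaled RPKM) of the MADS-box unigenes in each library, 3 male libraries left of 3 female libraries, divided by clade. Male library 2 had the highest total (1421) and female library 3 the lowest (565), and the E and B classes together formed the larger part of every bar.

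B-class genes specify petals and stamens, and 2 of the 3 B-class unigenes were among the most highly expressed members. The first, contig_8986 (1235 bp), matched DEFICIENS, the B-class gene of snapdragon. Its level was 99.4, 250 and 189 in male libraries 1, 2 and 3, against 62.4, 86.8 and 52.7 in female libraries 1, 2 and 3. Each male library lay above each female library, with male library 1 closest to them. Its mean was 179 ± 75.6 in male and 67.3 ± 17.6 in female flowers (SD, n = 3 each), and its log2 difference of 1.40 (SE 0.45) was not called (adjusted p = 0.259). DESeq2 called it with an adjusted p of 0.0489, the lowest over its 15 fits, in which the adjusted p reached 1. The study, which tested RPKM with another program (DEGseq), reported its class B gene AP3 as significantly increased in male flowers. Its text does not name the unigene, and it states that quantitative PCR of selected transcripts gave the same pattern as sequencing. The second DEFICIENS-like unigene, contig_564 (1192 bp), had nearly the same levels as contig_8986, with 107, 236 and 194 in male libraries and 65.1, 83.3 and 83.8 in female libraries. Its log2 difference was 1.20 (SE 0.41, adjusted p = 0.282), and again the sexes did not overlap on this scale.

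Relative to contig_564, the level of contig_8986 was 0.93, 1.06 and 0.974 in male libraries and 0.96, 1.04 and 0.629 in female libraries. The pair thus had like levels except in female library 3, where contig_8986 was the lower. How reads shared by similar transcripts were counted is not stated in these sources, so that the values of the 2 unigenes may not be independent. On RPKM as deposited the sexes overlapped for contig_8986, with 80.3, 342 and 166 in male libraries against 108, 161 and 16.8 in female libraries. They also overlapped for contig_564, with 86.4, 323 and 171 in male libraries against 113, 155 and 26.7 in female libraries. The order of male library 1 and female libraries 1 and 2 thus depended on the scaling. The third B-class unigene, contig_43099 (576 bp), matched MADS16 of rice, a B-class protein, while its NR match was a MADS18-like protein of orange. It had 0, 2 and 0 reads in male libraries and 35, 44 and 0 reads in female libraries and was not tested. In female library 3, 0 reads allow a level of up to 1.42 (3 reads, counting error only). That is above the 1.07 and 1.02 of female libraries 1 and 2. This unigene was singled out after its values were seen. No member had a SwissProt match named GLOBOSA or PISTILLATA, the usual partner of the DEFICIENS protein.

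Within C and D classes, AGAMOUS, which specifies stamens and carpels and ends the growth of the floral meristem, was matched by contig_11098 (408 bp). Its level was 69.3, 69.5 and 71.5 in male libraries, against 55.5, 66.6 and 47.6 in female libraries. Male libraries were within a narrow range just above the highest female library, and the means were 70.1 ± 1.23 in male and 56.6 ± 9.53 in female flowers (SD, n = 3 each). The log2 difference was 0.29 (SE 0.27, adjusted p = 0.678), was not called, and was -0.15 with library totals in place of TMM. The D-class contig_9863 (2681 bp) matched AGL11 (SEEDSTICK), which specifies ovules in Arabidopsis. It had 4.43, 4.81 and 5.26 in male libraries and 6.89, 8.21 and 5.51 in female libraries, so that all female libraries lay above the male ones on this scale. Its log2 difference of -0.52 (SE 0.29, adjusted p = 0.490) was not called.

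The third member of these classes, contig_42165 (429 bp), matched MADS21 of rice and had 2, 17 and 12 reads in male libraries against 3, 2 and 0 reads in female libraries. Per length its level was 0.405, 1.72 and 2.26 in male libraries and 0.123, 0.0622 and 0 in female libraries. In female library 3, 0 reads allow a level of up to 1.91, above male libraries 1 and 2. It did not pass the filter, and it was called in 1 of the 5 fits that included it, that without male library 1 (log2 4.52, adjusted p = 0.0405), over a range of adjusted p up to 0.536. It was singled out after its values were seen.

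E-class unigenes numbered 6, all tested, and none was called. Of the 6, 5 had a log2 difference above 0, as had 13346 of all 29327 unigenes tested. An unadjusted p under 0.05 was found for 3 (50%, against 13.2% of all unigenes tested). DESeq2 called 1, higher in male flowers, as it did 2.75% of all unigenes tested. The AGL9-like contig_1838 (1259 bp) matches the protein known in Arabidopsis as SEPALLATA 3, and was the most highly expressed MADS-box unigene in both sexes. Its level was 192, 306 and 253 in male libraries, against 99.8, 116 and 89.3 in female libraries. On this scale every male library was above every female library, and the means were 250 ± 57.3 in male and 102 ± 13.4 in female flowers (SD, n = 3 each). On RPKM as deposited the sexes overlapped, with 155, 419 and 222 in male libraries against 173, 215 and 28.5 in female libraries. The log2 difference of contig_1838 was 1.29 (SE 0.39, adjusted p = 0.226). DESeq2 called it (adjusted p = 0.00459), in 1 of 15 fits, over a range of adjusted p up to 1.

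The 2 unigenes with a SEPALLATA 1 or SEPALLATA 2 match are short. For contig_18046 (SEPALLATA 1, 419 bp) the level was 62.3, 105 and 67 in male libraries and 64.1, 57 and 35.9 in female libraries. Male library 2 alone stood out, the sexes overlapped, and the log2 difference was 0.56 (SE 0.35, adjusted p = 0.540). For contig_20102 (SEPALLATA 2, 342 bp) it was 56.6, 95.9 and 100 in male libraries and 54.9, 47.3 and 46.4 in female libraries. Here male library 1 lay just above the highest female library, and the log2 difference was 0.75 (SE 0.32, adjusted p = 0.368).

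Another 3 E-class unigenes matched CMB1, an E-class protein of carnation. In contig_6838 (821 bp) the level was 58.6, 44.1 and 41 in male libraries, all above the 24.9, 24.2 and 36 in female libraries, with a log2 difference of 0.75 (SE 0.31, adjusted p = 0.352). In contig_10287 (1226 bp) the sexes overlapped, with 34.9, 24.9 and 23.3 in male libraries and 29.5, 30.4 and 12.7 in female libraries. The log2 difference of contig_10287 was 0.17 (SE 0.40, adjusted p = 0.881) and changed sign to -0.45 with library totals. The lowest of the class, contig_19858 (1019 bp), had 5.62, 2.94 and 3.72 in male libraries and 5.67, 3.83 and 7.25 in female libraries (log2 -0.44, SE 0.43, adjusted p = 0.696). Its NR match was named flowering locus C of birch, so that its place in the E class rests on the SwissProt name alone.

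The AGL6-like contig_2468 (1065 bp) belongs to a clade close to the SEPALLATA genes. Its level was 69, 133 and 77.5 in male libraries and 44.7, 62.7 and 56.2 in female libraries. The sexes did not overlap on this scale, and the log2 difference of 0.76 (SE 0.37, adjusted p = 0.427) was not called.

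The AP1/FUL-like clade, which acts in meristem identity, in sepals and petals and, for FRUITFULL (AGL8) in Arabidopsis, in the fruit wall, held 5 unigenes that did not move alike. The one call of the family, contig_36842 (1343 bp), matched MADS18 of rice, a protein of this clade. It had 173, 238 and 101 reads in male libraries, against 10, 14 and 0 reads in female libraries, although 2 female libraries were the deepest of the 6. Per length its level was 11.2, 7.69 and 6.06 in male libraries, against 0.131, 0.139 and 0 in female libraries, where 0 reads allow a level of up to 0.611 in female library 3 (3 reads, counting error only). The mean was 8.31 ± 2.61 in male and 0.0900 ± 0.0781 in female flowers (SD, n = 3 each), and the sexes did not overlap on either scale. The log2 difference was 6.02 (SE 0.58, adjusted p = 0.00177). It was called in all 14 fits that included it, with adjusted p from 6.15e-20 to 0.0176 and log2 differences from 2.96 to 6.34, and a minimum mean RPKM of 5 left it out. In male flowers it ranked 15 of the 38 members by mean level, and in female flowers 36.

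The APETALA 1-like contig_11211 (1130 bp) had a level of 49.5, 49.9 and 25 in male libraries and 33.1, 31.3 and 18.6 in female libraries. APETALA 1 specifies the floral meristem and, as an A-class gene, sepals and petals. Replicate 3 was the lowest library of each sex, the sexes overlapped, and the log2 difference of 0.56 (SE 0.39, adjusted p = 0.574) was not called. Of the 3 unigenes with a match to the AGL8 homolog of potato, contig_6963 (862 bp) had 24, 21.5 and 12.7 in male libraries and 38.7, 48.7 and 20.9 in female libraries. Female library 3 fell among the male libraries there, and the log2 difference was -0.92 (SE 0.41, adjusted p = 0.392). In contig_13728 (737 bp), whose NR match is the same database record of a Ricinus protein, the level was 13, 10.5 and 11.3 in male libraries, below the 18.2, 24.4 and 20.8 in female libraries. The sexes did not overlap on this scale, and the log2 difference of -0.88 (SE 0.30, adjusted p = 0.275) was not called. In contig_10257 (1795 bp) it was 10.8, 10.6 and 8.98 in male libraries and 7.27, 6.82 and 10.4 in female libraries, with overlap between the sexes and a log2 difference of 0.32 (SE 0.30, adjusted p = 0.684).

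**Figure D3:**
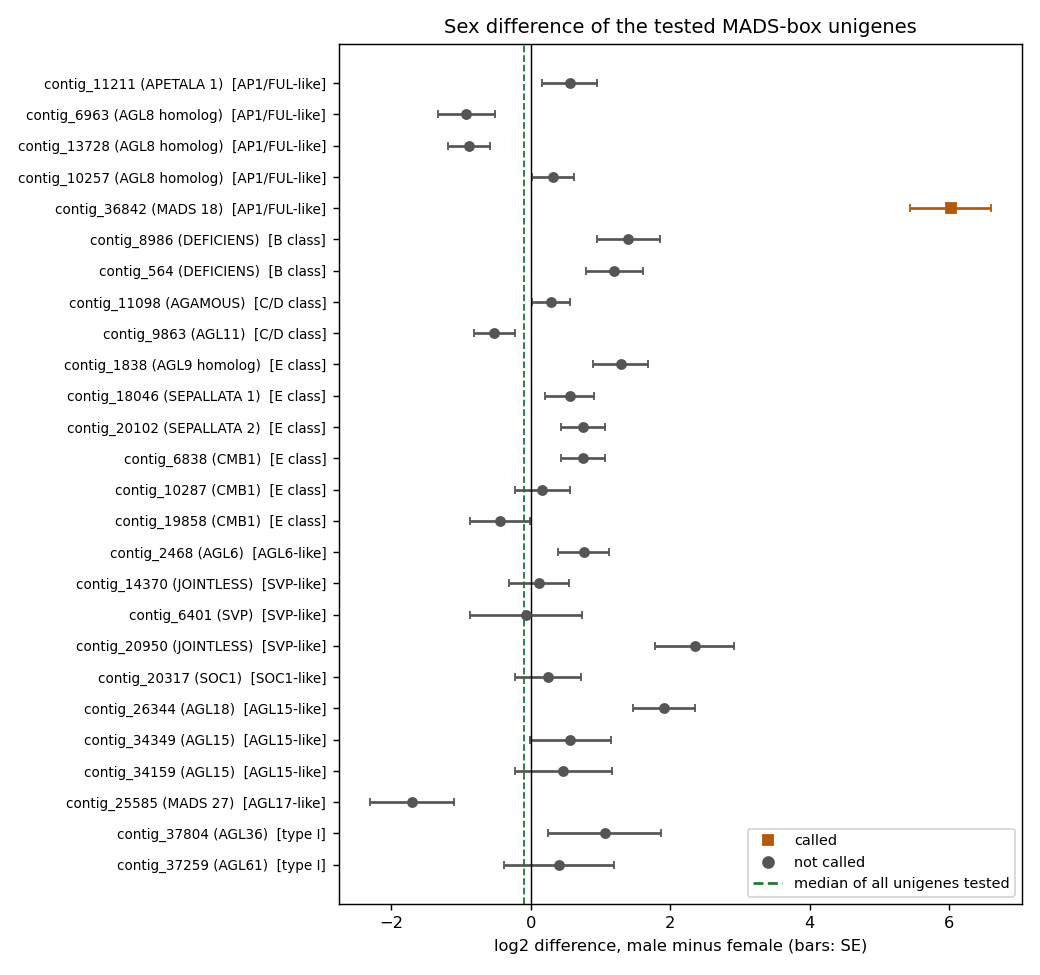
Log2 difference, male minus female, of the 26 tested MADS-box unigenes by clade, with bars for the SE, a square for the called unigene and a dashed line at the median of all unigenes tested (-0.09). The MADS18-like contig_36842 stands alone at 6.02, the DEFICIENS-like and AGL9-like unigenes lie between 1.20 and 1.40, and 6 unigenes lie below 0.

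Ratios of levels within a library do not depend on how libraries are scaled, and these were computed after the levels were seen. The summed level of the DEFICIENS pair over that of AGAMOUS (contig_11098) was 2.98, 6.98 and 5.36 in male libraries, against 2.3, 2.56 and 2.87 in female libraries. Male library 1 exceeded female library 3 only narrowly. For the AGL9-like contig_1838 over AGAMOUS, the ratio was 2.77, 4.4 and 3.53 in male libraries, against 1.8, 1.74 and 1.88 in female libraries, with a clear gap between the sexes. The DEFICIENS pair over contig_1838 gave 1.08, 1.59 and 1.52 in male libraries and 1.28, 1.47 and 1.53 in female libraries. This ratio overlapped between the sexes.

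Among the A-type unigenes, the AGL8-like contig_6963 over the APETALA 1-like contig_11211 was 0.484, 0.431 and 0.509 in male libraries, against 1.17, 1.55 and 1.12 in female libraries. In each male library APETALA 1 was thus the higher of the pair, and in each female library the AGL8-like unigene was. The SEPALLATA 1-like contig_18046 over contig_1838 was 0.325, 0.343 and 0.265 in male libraries and 0.642, 0.492 and 0.402 in female libraries. Here too the sexes did not overlap. The AGL6-like contig_2468 over AGAMOUS did overlap, with 0.995, 1.91 and 1.08 in male libraries and 0.805, 0.942 and 1.18 in female libraries. So did contig_13728 over contig_6963, with 0.541, 0.488 and 0.886 in male libraries and 0.47, 0.502 and 0.992 in female libraries. With 3 libraries against 3, an exact permutation test cannot give a p below 0.1, and no test of these ratios was made.

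**Figure D4:**
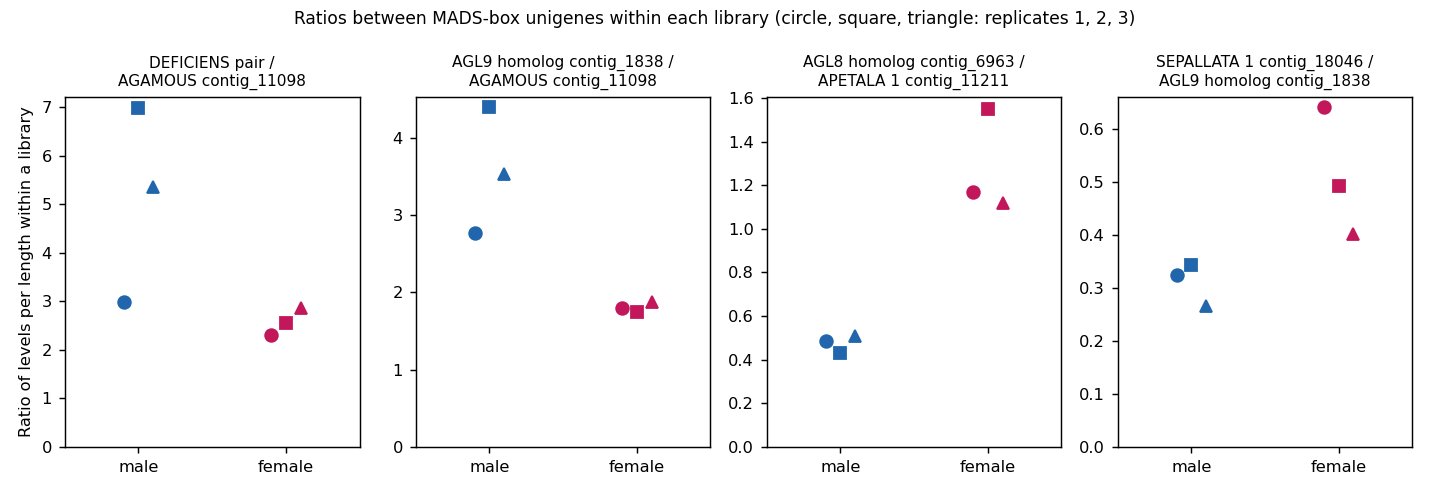
Ratio of levels per length between MADS-box unigenes within each library, male left of female in each of 4 panels, with 1 point per library. Only ratios whose sexes did not overlap are shown. The DEFICIENS pair and the AGL9-like contig_1838 are higher relative to AGAMOUS in male libraries (2.98 to 6.98 and 2.77 to 4.4) than in female libraries (2.3 to 2.87 and 1.74 to 1.88), while contig_6963 over contig_11211 is below 0.51 in male and above 1.11 in female libraries.

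Of the clades that act in the timing of flowering, the AGL15-like contig_26344 (1740 bp) matched AGL18, a repressor of flowering in Arabidopsis. Its level was 12.4, 14.7 and 16.3 in male libraries, against 4.68, 4.77 and 1.57 in female libraries. The sexes were separated on both scales, and the mean was 14.4 ± 1.96 in male and 3.68 ± 1.82 in female flowers (SD, n = 3 each). Its log2 difference of 1.91 (SE 0.44) missed the threshold with an adjusted p of 0.106. It was called in 3 of 15 fits, namely without a filter on low counts (adjusted p = 0.0455), with DESeq2 (0.00206) and without female library 3 (0.0325), over a range of adjusted p up to 1. The other 2 members of its clade matched AGL15 and had log2 differences of 0.57 and 0.47, with overlap between the sexes.

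In the SVP clade, SVP itself represses flowering in Arabidopsis, and JOINTLESS is needed for the pedicel joint of tomato. The JOINTLESS-like contig_14370 (399 bp) was nearly level, with 4.13, 4.67 and 4.85 in male libraries and 4.37, 4.01 and 4.11 in female libraries. Its log2 difference was 0.12 (SE 0.43, adjusted p = 0.930) and turned to -0.25 with library totals and to -0.05 with a minimum mean RPKM of 5. A second JOINTLESS-like unigene, contig_20950 (1188 bp), had 2.26, 1.94 and 0.950 in male libraries and 0.385, 0.314 and 0.230 in female libraries. It was singled out after its values were seen. The sexes did not overlap on either scale, and the log2 difference of 2.35 (SE 0.57, adjusted p = 0.129) was called by DESeq2 alone (adjusted p = 0.00768, range up to 1 over 14 fits). The SVP-like contig_6401 had a log2 difference of -0.07 (SE 0.80), and its highest library was female library 3.

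In the SOC1 clade, whose members promote flowering, 1 of 3 unigenes was tested (contig_20317, log2 0.25, SE 0.47). The untested contig_37265, singled out after its values were seen, had 17, 32 and 3 reads in male libraries and 0, 4 and 0 reads in female libraries. In female library 3, 0 reads allow a level of up to 1.91, above the 0.563 of male library 3. In the AGL17 clade, known in roots, contig_25585 matched MADS27 of rice, is 6064 bp long and had a level of 0.859, 0.422 and 0.452 in male libraries against 1.14, 3.44 and 0.902 in female libraries. Female library 3 lay just above male library 1, and the log2 difference of -1.70 (SE 0.60, adjusted p = 0.295) was not called. It too was chosen for description after its values were seen. The other AGL17-like member and the single AGL12-like member had at most 21 reads in a library and were not tested.

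Of the 8 type I members (AGL36, AGL61, AGL62 and AGL80 matches), 2 were tested and neither was called, with log2 differences of 1.06 for contig_37804 and 0.41 for contig_37259. Summed levels of the type I members were 4.38, 4.9 and 4.82 in male libraries and 5, 2.67 and 2.64 in female libraries, so that the clade was low and overlapped between the sexes.

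Regulators and partners of the MADS-box genes were taken as a list of 40 further unigenes, among them LEUNIG, SEUSS, CURLY LEAF, BELLRINGER, HUA1, HUA2 and FLOWERING LOCUS T. Of the 34 tested, 1 was called higher in male and none in female flowers (against 1.56% and 0.143% of all unigenes). An unadjusted p under 0.05 was found for 1 in each direction (5.88%, against 13.2% of all unigenes). DESeq2 called 1 of the 34, higher in male flowers, as it did 2.75% of all unigenes. The median log2 difference of the 34 was -0.05 (-1.61 to 3.18). The summed CPM of the list was 628, 615 and 611 in male libraries and 600, 629 and 624 in female libraries. The list as a sum was thus nearly level across the 6 libraries. Such a sum is set by the members with most reads, and those with few reads can differ without changing it.

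The call was WUSCHEL (contig_35309), a homeobox protein that maintains stem cells and activates AGAMOUS in the floral meristem of Arabidopsis. Its level was 5.92, 11.4 and 5.50 in male libraries, against 0.952, 0.701 and 0.858 in female libraries. All male libraries lay far above all female libraries, and the log2 difference was 3.18 (SE 0.47, adjusted p = 0.0135). It was called in 8 of 14 fits, with adjusted p up to 0.725, and it was not called without male library 2 (0.0586), female library 1 (0.0654) or female library 2 (0.0969). An APETALA 2-like unigene (contig_10948), a known antagonist of AGAMOUS, had 9.82, 13.2 and 14.4 in male libraries and 18, 20.8 and 20.1 in female libraries. The sexes did not overlap on this scale but did on RPKM as deposited, and the log2 difference of -0.66 (SE 0.28, adjusted p = 0.371) was not called. The SUPERMAN-like contig_44730, named for a gene that sets the border between stamens and carpels, had 2, 1 and 2 reads in male libraries and 157, 241 and 0 reads in female libraries. It did not pass the filter, and the reads were all but absent from female library 3 as well as from the male libraries. Without female library 3 it was called (log2 -4.56, adjusted p = 0.0194, range up to 0.462 over its 5 fits). Both contig_10948 and contig_44730 were chosen for description after their values were seen.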

How the data were processed

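Total RNA of whole stage 7 flower buds was sequenced by Illumina HiSeq in 3 male and 3 female samples, none of which was left out. The authors assembled clean reads de novo and deposited read counts per unigene and RPKM values for 56065 unigenes. How reads were mapped and counted was not stated there. The deposited RPKM matched reads divided by unigene length and by the library's sum of reads to a relative difference of 4.73e-08. Another 7 lines without a unigene were left out, and 20038 unigenes had a SwissProt match.

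Members were found by their SwissProt description and placed in clades by the name of that match. The members, clades and lists were chosen with earlier results of these data known. Named unigenes were the members with a mean RPKM of at least 5, those called, both DEFICIENS matches, contig_6963 and, of the list of regulators, those called. Of the others, some are said to be chosen after their values were seen, and the remaining tested members are given to complete their clade. Marker lists were taken by description for pollen and anther, carpel and ovule, and green tissue.

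The counts were tested with edgeR 4.0.16 (filterByExpr, TMM, quasi-likelihood F test, prior count 0.125), limma 3.58.1 and DESeq2 1.42.0 under R 4.3.3. P-values were adjusted by the Benjamini-Hochberg method over all 29327 unigenes tested. The SE was obtained by dividing the size of the log2 difference by the root of its F value. TMM factors were 0.808, 1.37 and 0.880 for male libraries 1 to 3 and 1.74, 1.86 and 0.319 for female libraries 1 to 3, and the biological coefficient of variation was 51%. The test script was checked on simulated counts. Figures were drawn in Python 3.11.15 with matplotlib 3.10.9.

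The correlation of deviations from each sex's mean was 0.194, 0.125 and 0.371 for samples of the same replicate number and -0.315 to 0.159 for the other pairs. By the limit of 0.1 the numbers were taken to pair the samples, and the methods state that both sexes came from the same plant. However, the correlation of male 1 with female 2 (0.159) exceeded that of male 2 with female 2. The fit reported took no account of the pairing, which entered only as the replicate block among the alternatives. The alternatives tried were median-of-ratios scaling, library totals, no filter on counts, a minimum mean RPKM of 5, DESeq2, limma on log2(RPKM + 1) and log2(RPKM + 0.1), no fold threshold, the replicate block, and each library left out. Overlap on RPKM as deposited was chosen after seeing the data.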

Additional observations from a re-analysis of the deposited data

How the results depend on the processing

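Of the MADS-box unigenes, 1 was called in the fit reported, 2 without a filter on low counts, 0 with a mean RPKM of at least 5 (which left out contig_36842), 5 with DESeq2 (contig_36842, contig_8986, contig_1838, contig_20950 and contig_26344), and 1 to 2 with each library left out, the second being contig_42165 without male replicate 1 and contig_26344 without female replicate 3. Over all unigenes, 499 were called, 802 without a filter, 287 with a minimum mean RPKM of 5, 1401 with DESeq2 (807 of them higher in male flowers, against 457 of 499). With each library left out the number ran from 269 (without female replicate 2) to 970 (without female replicate 3, 678 of them higher in male flowers), and it was 297 without female replicate 1. With library totals the log2 difference reversed to -0.15 for contig_11098, -0.45 for contig_10287 and -0.25 for contig_14370, and with a mean RPKM of at least 5 to -0.05 for contig_14370. The other values of named members kept their direction, in 242 of 251 cases on the same side of the threshold and in 5 passing it only under the alternative. The number of members whose sexes did not overlap was 13, and 3 on RPKM as deposited (5720 and 1390 over all unigenes). With the replicate number as a block, 521 unigenes and 1 MADS-box unigene were called, and it changed the call of no member. The cause of these differences was not tested. Female replicate 3 had the fewest reads on MADS-box unigenes (1998).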

Other observations

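Another 6 unigenes had a MADS-box name in the NR database alone, not in the SwissProt description, and are not among the 38 members. One of them, contig_37212 (890 bp), has the same NR record, a Ricinus protein, as the MADS21-like contig_42165. It had a level of 0.975, 1.12 and 2.36 TMM-scaled RPKM in male libraries and no read in the 3 female libraries. With the reads of each sex pooled, the male level was at least 56.7-fold that of a floor of 3 female reads. This bound covers counting error only, not the spread between replicates. In female library 3 alone, 0 reads allow a level of up to 0.922, near that of male library 1. The unigene contig_37212 was called (adjusted p = 0.0312, edgeR) in 6 of 14 fits, over a range from 6.54e-06 to 0.367. With the replicate number as a block its adjusted p was 0.0817, and it was above 0.05 with any library other than female replicate 3 left out. In the opposite direction, contig_30784, whose SwissProt match is TRANSPARENT TESTA 16, a B-sister gene of the ovule and seed coat in Arabidopsis, had 0.157, 0.549 and 0.292 in male libraries and 1.75, 1.8 and 1.48 in female libraries. All female libraries lay above all male libraries on this scale, but on RPKM as deposited the sexes overlapped (0.127, 0.751 and 0.257 in male libraries, 3.04, 3.34 and 0.473 in female libraries). The log2 difference of -2.28 (SE 0.59, adjusted p = 0.156) was not called, while DESeq2 called it (adjusted p = 0.0201, range up to 1 over 14 fits). The other 4 were not called. These unigenes were chosen for description after their values were seen.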
